A study of Danio rerio with 12 samples.

Results

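Chemokines and their receptors were read out in sorted cells of the adult zebrafish gill and intestine. The 80 genes described here are all Ensembl identifiers of the count table whose zebrafish symbol begins, in either case, with ccl, cxcl, ccr, cxcr, xcr or ackr followed by a digit. They comprise 52 ligands, 23 receptors and 5 atypical receptors out of 32520 identifiers, of which 29201 carried a symbol and 3319 did not and could not be searched. All fish were adult and carried the transgenes sox17:CreERT2 and mpeg1:loxP-DsRedx-loxP-GFP, that is an inducible Cre recombinase expressed from the promoter of sox17, an endoderm transcription factor, and a macrophage-type mpeg1 promoter driving DsRedx until Cre removes it and GFP takes its place. The series treats GFP cells as metaphocytes, a macrophage-like cell of barrier tissues that derives from outside the blood lineage, and DsRedx cells as macrophages. GFP and DsRedx cells were sorted from the gill and from the intestine, with 3 libraries in each of the 4 groups, each made from 30 to 50 cells by SMART-seq2, a protocol that amplifies full-length cDNA from very few cells. The color records whether Cre acted, so a cell of the sox17 lineage in which Cre did not act would still be DsRedx. The labels do not say that the 3 libraries of a group came from separate fish, so the p-values below measure the spread between these libraries, which may be technical.

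Chemokines are small secreted proteins that direct the movement of leukocytes. Their receptors span the membrane and signal through inhibitory G proteins, while atypical receptors (ACKR) bind chemokines without that signal and remove them. In mammals CCL20 is the ligand of CCR6, CCL25 of CCR9, CXCL12 of CXCR4 and ACKR3, the CXCL11 group of CXCR3, CCL19 of CCR7, and CXCL8 draws neutrophils through CXCR1 and CXCR2. The zebrafish carries many further copies. Both CXCR4 copies were in the table under the same symbol, as were several pairs of CCR6, XCR1 and ACKR3 genes, so such copies are named here with their identifier, and the name table does not say which CXCR4 identifier is cxcr4a and which is cxcr4b.

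The libraries held 5895669 to 12365233 counts and 9506 to 13278 genes with a count. Libraries of a group resembled each other only moderately, with correlations of log2 CPM (counts scaled to library size) between 0.572 and 0.727 across genes, and the common biological coefficient of variation was 1.42, so only large or very even differences could pass the test. The macrophage marker list (13 identifiers) summed to 30097 to 39106 CPM in gill DsRedx against 9572 to 18274 CPM in gill GFP, and to 19803 to 24720.2 CPM in intestine DsRedx against 3811 to 4447 CPM in intestine GFP. Epithelial markers (7 identifiers) ran the other way, at 5706 to 9569.6 CPM in gill GFP against 486 to 2285 CPM in gill DsRedx, with 8024 to 9971 CPM in intestine GFP against 491 to 1074 CPM in intestine DsRedx. Both sums thus move with color in each tissue, but not every marker does. Most of the gill macrophage sums was cd74a (7485 to 14948 CPM in GFP, 26522 to 32345 CPM in DsRedx). LCP1 and CORO1A overlapped between the gill colors, and CORO1A was higher in intestine GFP (382 to 524 CPM) than in intestine DsRedx (164 to 326 CPM). The epithelial marker krt8 was at 592, 487 and 700 CPM in gill GFP against 418, 2058 and 1439 CPM in gill DsRedx. The part of these markers in the results was not tested. Libraries of a tissue also shared a low level of each other's transcripts. Of 147 genes with at least 500 counts in 1 library and under 2% of that in every other, 76.1% of the other libraries of the same tissue still held a count, against 13.3% of those of the other tissue. The median was 0.197% of the carrying library in the same tissue and 0 in the other. The 2% is the cutoff that chose these genes and not a measured limit of the shared level. A level under 2% of the other color of its tissue may be this shared level, so the size of such a fold is uncertain.

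Of the 80 genes, 19 had no count in any library (under 0.0301 CPM, the level of 3 counts over all 12 libraries), 32 had counts but were removed by the filter, and 29 were kept (17 ligands, 11 receptors and 1 atypical receptor) and were tested among 10666 genes. The filter keeps a gene only when at least 3 libraries, the size of a group, reach its count threshold. It thus keeps a gene high in only 1 group, and removes genes with low counts or high in only 1 or 2 libraries. The counts below describe those 29 genes and not the whole family. A gene was called at an adjusted p under 0.05, from the quasi-likelihood F test of edgeR adjusted by Benjamini and Hochberg's method over all 10666 genes. In the gill, 7 of the 29 genes were called between GFP and DsRedx cells (24.1%, against 4.59% of all genes). These were 6 ligands lower in GFP cells (2.31% of all genes were called lower) and 1 receptor higher (2.29% of all genes were called higher; with DESeq2's size factors in the same test the split over all genes was 177 higher and 268 lower in place of 244 and 246). In the intestine 7 of 29 were called as well, against 4.12% of all genes. There 4 ligands and 2 receptors were lower in GFP cells, against 2.03% of all genes, and 1 receptor was higher, against 2.09%. The fitted log2 fold changes of the 17 ligands had a median of -6.61 in the gill and -6.73 in the intestine, beside 0 and 0.08 for all genes. For the 12 receptors the medians were -0.09 and -2.92. The gill ligand median was -4.55 with ccl38.1 and cxcl11.1, which had no count in GFP cells, set to their bound. The ligands cxcl20 and cxcl32b.1 also had no gill GFP count, but with at most 1 count in gill DsRedx they had no bound. The values of GFP and DsRedx libraries did not overlap for 12 of the 29 genes in the gill (20.1% of all genes) and for 18 in the intestine (29.7% of all genes). Leaving out gill GFP 1, 2 or 3 reduced the gill count to 4, 3 and 4, and leaving out intestine GFP 1, 2 or 3 or intestine DsRedx 1 reduced the intestine count to 3, 3, 4 and 3.

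**Figure D1:**
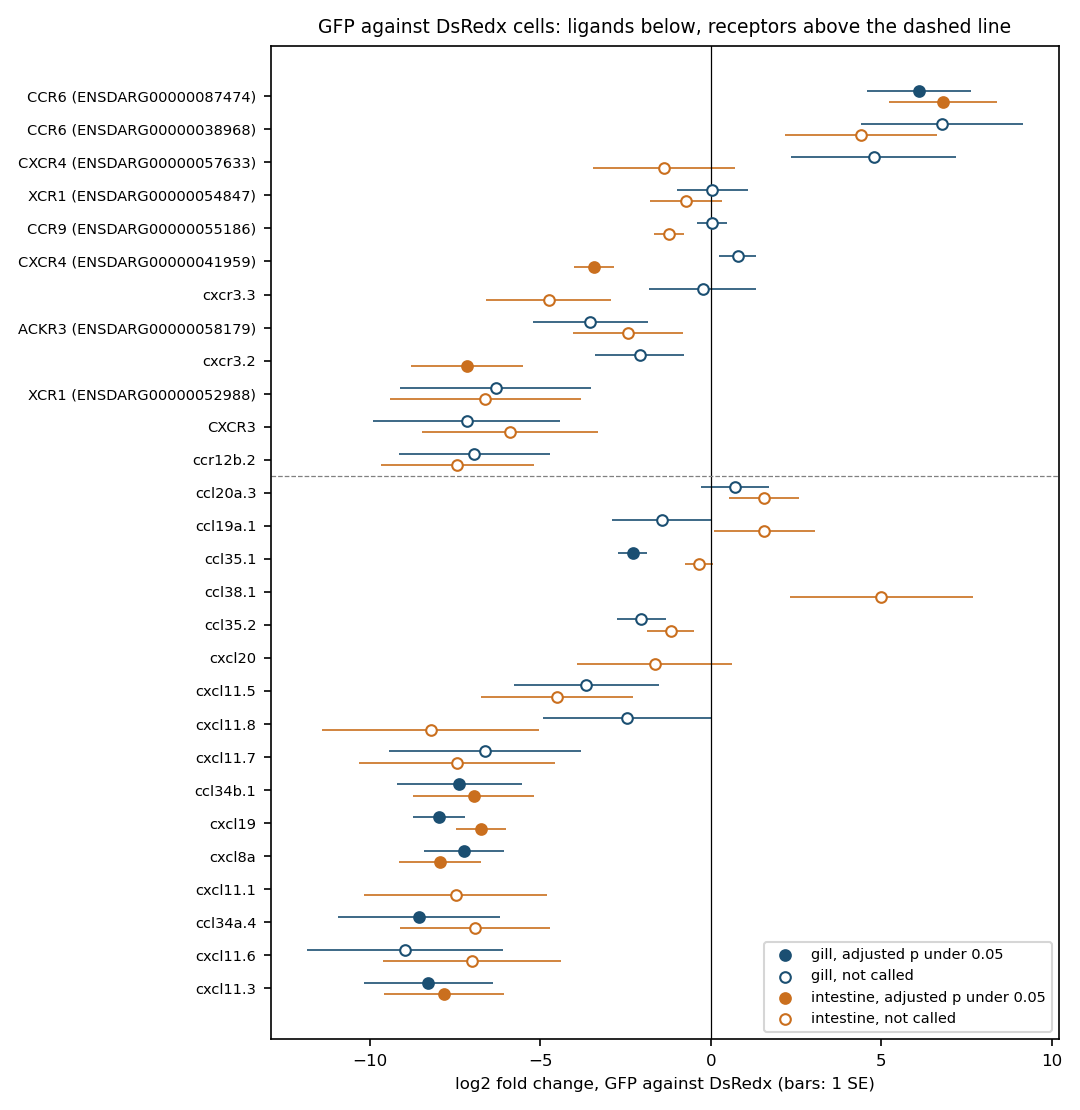
Log2 fold change of GFP against DsRedx cells for the tested genes in gill and intestine, with bars of 1 standard error; ligands lie below the dashed line and receptors above it, filled points are called, and cxcl32b.1 in both tissues and cxcl11.1, ccl38.1 and cxcl20 in the gill, with no count in at least 1 gill group, are not drawn. Ligands such as cxcl19 (-7.97 in the gill, -6.73 in the intestine) lie far to the left in both tissues, while CXCR4 (ENSDARG00000041959) lies at 0.79 in the gill and -3.42 in the intestine.

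Per length, the ligand transcripts of each group came from few genes. In gill GFP cells ccl35.1, a CC ligand of a fish-specific series, stood at 2921 ± 513 TPM (scaled for gene length and depth; mean ± SD, n = 3), ccl20a.3, a zebrafish copy of the CCR6 ligand, at 2321 ± 2015 TPM, and ccl35.2 at 250.4 ± 47.5 TPM. In gill DsRedx cells ccl35.1 led with 10355 ± 1699.9 TPM, followed by the CXC ligands cxcl19 with 2333 ± 799 TPM and cxcl8a, a zebrafish copy of the neutrophil attractant CXCL8, with 1289 ± 1035 TPM. Intestine GFP cells carried ccl35.1 at 6044 ± 414 TPM, ccl35.2 at 385 ± 83.2 TPM and ccl19a.1, a copy of the CCR7 ligand CCL19, at 276 ± 56.2 TPM. Intestine DsRedx cells carried cxcl19 at 7488 ± 4472 TPM, ccl35.1 at 6021 ± 3165 TPM and cxcl8a at 3369 ± 4685 TPM, whose SDs are so large that their order is not separated from the spread. The 2 ccl35 genes together made up 89.1% to 92.2% of ligand TPM in the intestine GFP libraries, 42.3% to 72.9% in gill GFP, 62.2% to 72.8% in gill DsRedx and 22.4% to 47.6% in intestine DsRedx. The share of cxcl19 with cxcl8a was 0.167% to 0.721% in gill GFP and 0.989% to 2.03% in intestine GFP, against 13.9% to 28.0% in gill DsRedx and 42.7% to 71.7% in intestine DsRedx. No GFP library reached the share of any DsRedx library of its tissue. The share of ccl20a.3 was 25.5% to 57.1% in gill GFP, 2.24% to 10.3% in gill DsRedx and at most 1.19% in any intestine library. Because a share depends on the other ligands, and because fewer cells of a type and less RNA per cell cannot be told apart in pooled cells, these shares describe the libraries and not single cells.

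**Figure D2:**
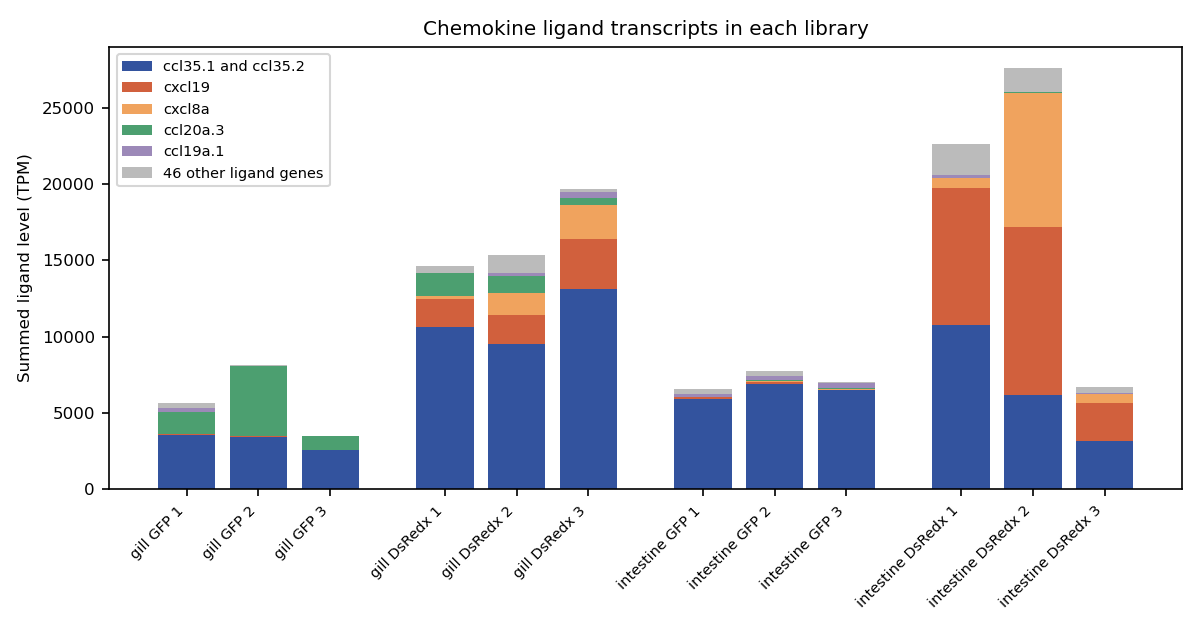
Summed TPM of the chemokine ligands in each of the 12 libraries, stacked by gene group; bars start at 0 and each bar is 1 library. The ccl35 genes fill 89.1% to 92.2% of the intestine GFP bars, and cxcl19 with cxcl8a fills 42.7% to 71.7% of the intestine DsRedx bars.

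Of the ligands called in both tissues, cxcl19 had the smallest standard errors. It was read at 828, 989 and 1475 CPM in gill DsRedx 1, 2 and 3 and at 4.25, 2.96 and 5.91 CPM in gill GFP 1, 2 and 3. In the intestine it was read at 3937, 4549.9 and 1068 CPM in DsRedx cells against 25.9, 44.8 and 18.98 CPM in GFP cells. All DsRedx libraries lay above all GFP libraries in both tissues. On the log2 scale, cxcl19 was lower in GFP cells by -7.97 (SE 0.77, adjusted p = 6.52e-06) in the gill and by -6.73 (SE 0.72, adjusted p = 1.09e-05) in the intestine, where the value was -7.34 without intestine DsRedx 3. Both calls held in all 12 fits that left out 1 library. The GFP levels were 0.399% and 0.939% of the DsRedx level of their tissue. Both are under the 2% cutoff of the shared low level, so the size of the folds is uncertain.

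The pattern of cxcl8a was the same in direction but far less even. Gill DsRedx libraries were at 92.7, 749 and 1052 CPM and gill GFP libraries at 6.69, 1.83 and 3.89 CPM. Intestine DsRedx libraries were at 319, 3719 and 277 CPM and intestine GFP libraries at 6.16, 5.36 and 6.01 CPM. No GFP value reached a DsRedx value, but within DsRedx cells the libraries spanned over an order of magnitude, with intestine DsRedx 2 holding 59.6% of the summed CPM of all libraries. The log2 differences were -7.24 (SE 1.17, adjusted p = 0.000814) in the gill and -7.94 (SE 1.21, adjusted p = 0.000409) in the intestine, the latter -5.67 without intestine DsRedx 2, -8.60 without intestine DsRedx 1 and -8.61 without intestine DsRedx 3. Both calls held in all 12 fits that left out 1 library. GFP levels were 0.655% and 0.406% of the DsRedx level, again under the 2% cutoff of the shared low level. The neutrophil marker list held 4 identifiers, 2 with a count. It summed to 59.8 to 180.1 CPM in gill GFP against 1.04 to 56.0 CPM in gill DsRedx. For the intestine the sums were 10.05 to 63.96 CPM (GFP) and 0.551 to 24.2 CPM (DsRedx). The GFP sums were nearly all npsn (59.4, 142 and 180 CPM in the gill). The other counted gene, CSF3R, stood out in library 3 of each DsRedx group, with 55.1 CPM for the gill and 23.8 CPM for the intestine. Every other library held at most 1.15 CPM of CSF3R. The part of neutrophils in the cxcl8a levels was not tested.

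The ccl35 genes were abundant in every library, so their differences do not rest on low values. The level of ccl35.1 was 5088, 5380.4 and 6403 CPM in gill DsRedx against 1124, 1282 and 1041 CPM in gill GFP. The groups were far apart and tight, and ccl35.1 was 4.89-fold lower in GFP cells (log2 -2.29, SE 0.43, adjusted p = 0.00307, in all 12 fits that left out 1 library). In the intestine it was 4705, 2747 and 1489 CPM in DsRedx cells against 2169, 2364 and 2492 CPM in GFP cells. These groups overlapped (log2 -0.35, SE 0.41, adjusted p = 0.726), and the difference between the tissues' color effects was -1.94 on the log2 scale (SE 0.58, adjusted p = 0.178), which did not pass the test. Its neighbour in name, ccl35.2, stood at 829, 588 and 871 CPM in gill DsRedx against 187, 203 and 166 CPM in gill GFP. These values did not overlap either, but the difference of -2.04 (SE 0.71) had an adjusted p of 0.101. In the intestine ccl35.2 was at 1396, 361 and 152 CPM in DsRedx cells against 210.0, 303 and 332 CPM in GFP cells, with overlap (adjusted p = 0.323). How reads shared by the 2 copies were counted is not given, but their sum gave the same picture: 5917, 5968 and 7274 CPM in gill DsRedx against 1311, 1484 and 1207 CPM in gill GFP.

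A tissue difference marked ccl20a.3. Gill GFP libraries were at 388, 1475 and 318 CPM, gill DsRedx libraries at 618, 540.0 and 182 CPM, intestine GFP libraries at 4.95, 17.9 and 27.1 CPM and intestine DsRedx libraries at 0.138, 12.9 and 3.83 CPM. All 6 gill libraries lay above all 6 intestine libraries, and the colors overlapped within each tissue (gill log2 0.70, SE 0.995, adjusted p = 0.699; intestine 1.57, SE 1.02, adjusted p = 0.391). In GFP cells the gill exceeded the intestine by 5.45 on the log2 scale (SE 1.198, 43.6-fold, adjusted p = 0.0171). That call was lost without gill GFP 2, where the value was 4.40, and without intestine GFP 1, 2 or 3 (adjusted p = 0.06 to 0.106; 6.23 without the last). In DsRedx cells the gill exceeded the intestine by 6.31 (SE 1.25, 79.3-fold, adjusted p = 0.0226), a call lost without intestine DsRedx 3 (adjusted p = 0.0528); the value was 7.78 without intestine DsRedx 2. Both calls ended when 2% of the level of the higher color of the same tissue was subtracted from each count (adjusted p = 0.203 and 0.19). The log2 values were then 5.33 and 6.12. The gill level was not subtracted from intestine counts. The DsRedx call also ended in the fit of those groups alone (adjusted p = 0.0589).

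The other ligand with a tissue call was cxcl32b.1, a CXC ligand gene. It had no count in any of the 6 gill libraries, where 3 counts over a group would be 0.131 CPM for GFP cells and 0.165 CPM for DsRedx cells. Intestine GFP libraries held 101, 82.3 and 9.97 CPM, and intestine DsRedx libraries 0.413, 1.33 and 0.494 CPM. The intestine GFP group therefore stood above all other libraries. In gill GFP cells cxcl32b.1 was at least 464-fold lower than in intestine GFP cells (adjusted p = 0.0465), but 8 of the 12 fits that left out 1 library lost the call, those without any of the 3 gill GFP or 3 intestine GFP libraries or without intestine DsRedx 1 or 3 (adjusted p = 0.0534 to 0.163). It was also lost with the replicate number as a block (adjusted p = 0.0614), with RLE, DESeq2's scaling (0.0601), and with the shared low level subtracted (0.316). Within the intestine the color difference of 6.41 (SE 2.35) had an adjusted p of 0.143. The enterocyte list (7 identifiers) summed to 1650.1, 2172 and 2204 CPM in intestine GFP 1, 2 and 3. It summed to 21.5 to 63.8 CPM in intestine DsRedx and to at most 0.276 CPM in the gill. Whether this sum moved with cxcl32b.1 cannot be judged from 3 intestine GFP libraries. Most of the sum in those libraries was VIL1 (802, 762 and 1174 CPM) and FABP6 (824, 586 and 968 CPM). FABP2, apoa1a, apoa4b.1 and SLC15A1 (ENSDARG00000044528) overlapped between the intestine colors. The other SLC15A1 copy had no count. The part of enterocytes in the result was not tested.

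The level of ccl19a.1 was uneven within 3 of the 4 groups. Intestine GFP libraries were even, at 175, 238 and 280.3 CPM, and intestine DsRedx libraries were at 173, 37.8 and 23.0 CPM. Gill GFP 1 held 220.2 CPM while gill GFP 2 and 3 held 1.55 and 2.18 CPM, and gill DsRedx libraries held 2.49, 183 and 418 CPM. The intestine colors did not overlap, yet none of the comparisons was called (adjusted p = 0.562 in the gill and 0.616 in the intestine between colors). CCR7, the receptor of CCL19 in mammals, had 1 count in all 12 libraries.

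The cxcl11 genes are zebrafish copies of the interferon-induced CXCR3 ligands. They and the fish CC ligands of the ccl34 series were carried mainly by DsRedx cells, each by a few libraries. The 7 cxcl11 identifiers with a count summed to 184, 153 and 104 CPM in gill DsRedx against 25.4, 0.141 and 1.24 CPM in gill GFP. In the intestine the sum was 784, 195 and 271 CPM in DsRedx against 2.00, 1.72 and 2.42 CPM in GFP cells. No GFP library reached a DsRedx library of its tissue. The genes behind the sum differed by library. In intestine DsRedx cxcl11.3 was at 592, 132 and 75.6 CPM and cxcl11.1 at 0.965, 45.1 and 179 CPM. In gill DsRedx cxcl11.3 was at 8.99, 0.522 and 42.6 CPM. There cxcl11.5 was at 150.3, 17.6 and 39.6 CPM and cxcl11.6 at 1.72, 86.6 and 6.76 CPM. Between the DsRedx groups edgeR called neither cxcl11.3 nor cxcl11.5 (adjusted p = 0.162 and 0.192). Between the colors only cxcl11.3 was called. In the gill it had 1 count over the GFP libraries, a pooled ratio of 452 in favour of DsRedx (95% Poisson interval 80.6 to 17890.6, counting error only; adjusted p = 0.0145), and the call was lost without gill GFP 2, gill GFP 3 or intestine DsRedx 1 (adjusted p = 0.0562 to 0.0753), with limma on log2(TPM + 1) (adjusted p = 0.116) and with the shared low level subtracted (0.0859). Its fitted log2 value of -8.29 became -10.15 without gill GFP 1, -8.92 without gill DsRedx 2 and -6.51 without gill DsRedx 3. In the intestine its log2 difference was -7.82 (SE 1.76, adjusted p = 0.012), lost without any of the 3 intestine GFP libraries or intestine DsRedx 1 (adjusted p = 0.0727 to 0.147; -6.66 without the latter and -8.45 without intestine DsRedx 3). The GFP levels of cxcl11.3 were 0.204% and 0.437% of the DsRedx level. Of the other 5 tested cxcl11 genes, cxcl11.1 had no count in gill GFP and was at 10.9, 0.522 and 0 CPM in gill DsRedx. The fitted log2 differences of the remaining genes were -2.46 to -8.97 in the gill, and those of all 5 were -4.52 to -8.22 in the intestine, with adjusted p of 0.0801 to 0.548 and 0.133 to 0.218.

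The 7 ccl34 identifiers summed to 7.27, 361 and 33.3 CPM in gill DsRedx against 0.638, 0.423 and 0.311 CPM in gill GFP. They summed to 327, 594 and 61.9 CPM in intestine DsRedx against 2.52, 5.65 and 3.81 CPM in intestine GFP. Every DsRedx library stood above every GFP library of its tissue in this sum. Within the series ccl34b.4, which did not pass the filter, went the other way, with 36 of its 41 counts in intestine GFP 2. For ccl34b.1, the gill DsRedx libraries were at 0.382, 90.8 and 33.0 CPM and the GFP libraries at 0.531, 0.141 and 0 CPM, which overlap at gill DsRedx 1. Its gill difference was -7.37 (SE 1.83, adjusted p = 0.0251), lost without gill GFP 1, 2 or 3 or intestine DsRedx 2 (adjusted p = 0.0508 to 0.103), with limma (adjusted p = 0.16 at a pseudocount of 1 and 0.109 at 0.1) and with the shared low level subtracted (0.0874); the value was -6.12 without gill DsRedx 2, -8.01 without gill DsRedx 1 and -8.87 without gill GFP 1. In the intestine, where ccl34b.1 was at 277, 361 and 55.7 CPM in DsRedx against 1.65, 1.63 and 2.27 CPM in GFP cells, the difference was -6.95 (SE 1.77, adjusted p = 0.0274), lost without any intestine GFP library or intestine DsRedx 1 or 2 (adjusted p = 0.0663 to 0.15; -7.60 without intestine DsRedx 3). The gill call of ccl34a.4 (-8.56, SE 2.38, adjusted p = 0.0435) rested on 1 library, with 6.88, 271 and 0.138 CPM in gill DsRedx against 0.106, 0.282 and 0.311 CPM in gill GFP. It was lost in 8 of the 12 fits, those without any gill GFP or intestine GFP library, without gill DsRedx 2, where the value was -3.86 (-9.18 without gill DsRedx 3), or without intestine DsRedx 2 (adjusted p = 0.0576 to 0.255), with the replicate number as a block (adjusted p = 0.148), with limma (0.262) and with the shared low level subtracted (0.146). All GFP levels of ccl34b.1 and ccl34a.4 were at most 0.809% of the DsRedx level of their tissue.

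**Figure D3:**
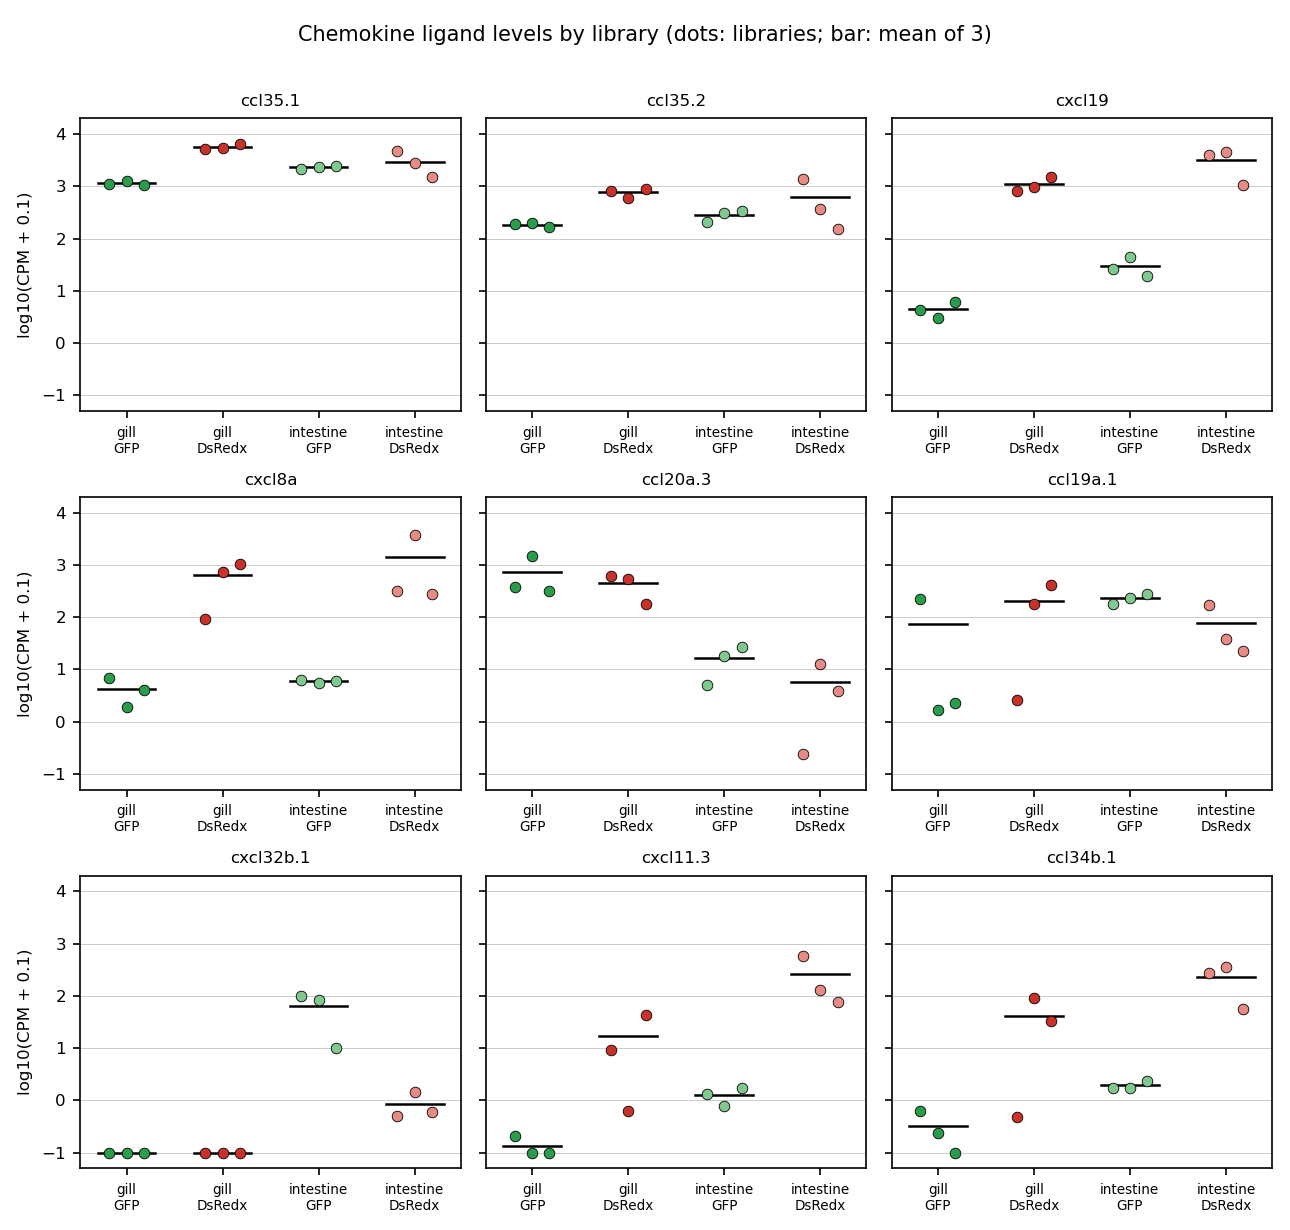
Level of ligands in each library on a log10(CPM + 0.1) axis, with 1 panel per gene and the 4 groups side by side; points are libraries and lines the log10 of the group mean. The panel of cxcl19 shows all 6 GFP libraries at 44.8 CPM or less and all 6 DsRedx libraries at 828 CPM or more, and that of ccl20a.3 shows all 6 gill libraries above all 6 intestine libraries.

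The receptor transcripts came mainly from 2 genes. CCR9 (ENSDARG00000055186), in mammals the receptor of the gut and thymus ligand CCL25, and CXCR4 (ENSDARG00000041959), the receptor of CXCL12, made up 86.2% to 95.8% of the receptor TPM in all 12 libraries. In gill GFP cells CXCR4 (ENSDARG00000041959) stood at 7586 ± 2939 TPM and CCR9 at 4941 ± 1756 TPM. In gill DsRedx cells CCR9 stood at 3473 ± 1212 TPM and CXCR4 at 3213 ± 2008 TPM. Intestine GFP cells carried CCR9 at 1555 ± 706 TPM and CXCR4 at 576 ± 329.5 TPM, and intestine DsRedx cells CXCR4 at 5006 ± 2359.7 TPM and CCR9 at 2785 ± 216 TPM. CXCR4 exceeded CCR9 in each of the 3 gill GFP libraries (5247 against 3904, 10885 against 6969 and 6625 against 3950 TPM). The same held in each of the 3 intestine DsRedx libraries (3865 against 2704, 7719 against 2622 and 3433 against 3030 TPM). In gill DsRedx cells CCR9 was higher in libraries 1 and 2 and CXCR4 in library 3. Next in rank was XCR1 (ENSDARG00000054847), in mammals the receptor of XCL1 and a gene of cross-presenting dendritic cells, at 114 ± 12.1 to 281 ± 170.2 TPM in 3 groups and, in intestine DsRedx cells, ccr12b.2, of a fish receptor series, at 202 ± 177 TPM.

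CXCR4 (ENSDARG00000041959) differed between the colors in the intestine and not detectably in the gill. Gill GFP libraries were at 3762, 9191 and 6168 CPM, gill DsRedx libraries at 1085, 4624 and 5356 CPM, intestine GFP libraries at 305, 298 and 823 CPM and intestine DsRedx libraries at 4077, 7645 and 3573 CPM. Intestine GFP cells were below every other library, and the other 3 groups overlapped. In the intestine GFP cells were 10.7-fold lower (log2 -3.42, SE 0.59, adjusted p = 0.00128), and within GFP cells the gill was 13.4-fold higher than the intestine (log2 3.74, SE 0.60, adjusted p = 0.00102). Both calls held in all 12 fits that left out 1 library, with values of -4.28 and 4.65 without intestine GFP 3. The gill color difference was 0.79 (SE 0.54, adjusted p = 0.337) and the DsRedx tissue difference -0.47 (SE 0.54, adjusted p = 0.693). The difference between the color effects of gill and intestine was itself called, at 4.21 on the log2 scale (SE 0.79, adjusted p = 0.0348), the only call by edgeR among the 29 genes (DESeq2 called 2 higher and 1 lower), against 0.15% of all genes (0.0563% higher and 0.0938% lower). It was 5.08 without intestine GFP 3 and was lost without gill GFP 2, gill GFP 3, intestine GFP 1, intestine GFP 2 or intestine DsRedx 2 (adjusted p = 0.0541 to 0.131). It was also lost with limma on log2(TPM + 0.1) (adjusted p = 0.0708) and on log2(TPM + 1) without the filter (adjusted p = 0.0718). The lowest CXCR4 group was at 9.33% of the DsRedx level of its tissue, above the 2% cutoff of the shared low level.

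The other CXCR4 identifier (ENSDARG00000057633) was low and patchy. Its values were 0, 0 and 84.3 CPM in gill GFP against 1.91, 0.870 and 0.276 CPM in gill DsRedx. Intestine GFP libraries held 0.781, 59.8 and 17.01 CPM and intestine DsRedx libraries 52.2, 22.6 and 125 CPM. The DsRedx groups of gill and intestine did not overlap, but their difference of -6.02 (SE 2.55) had an adjusted p of 0.19, and no comparison was called. Per length it stood at 32.1 ± 39.2 TPM in intestine GFP cells, against 576 ± 329.5 TPM for the first identifier there. The ligand gene CXCL12 (ENSDARG00000037116) was read almost only in 1 library, with 148 of its 150 counts in gill GFP 1. A further copy, cxcl12b, had no count in any library. ACKR3 (ENSDARG00000058179), the atypical receptor of CXCL12, was at 121, 346 and 54.4 CPM in gill DsRedx against 37.5, 6.20 and 1.24 CPM in gill GFP, without overlap (log2 -3.53, SE 1.69, adjusted p = 0.166), and in the intestine at 117, 6.24 and 106 CPM in DsRedx against 0.868, 41.3 and 0.586 CPM in GFP cells, with overlap (adjusted p = 0.404).

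CCR9 (ENSDARG00000055186) was high everywhere. Gill GFP libraries were at 3103, 6524 and 4078 CPM, gill DsRedx libraries at 2492, 5772 and 5022 CPM, intestine GFP libraries at 1715, 1688 and 707 CPM and intestine DsRedx libraries at 3162, 2879 and 3496 CPM. The gill colors overlapped closely (log2 0.04, SE 0.43, adjusted p = 0.994), while the intestine colors did not overlap but did not pass the test (log2 -1.21, SE 0.44, adjusted p = 0.133). Between the tissues GFP cells were 3.33-fold higher in the gill (log2 1.74, SE 0.45, adjusted p = 0.0465). This call was lost without gill GFP 2, gill GFP 3 or any of the 3 intestine GFP libraries (adjusted p = 0.0785 to 0.202), in DESeq2 (adjusted p = 0.0685), in the fit of the GFP groups alone (0.06) and with the shared low level subtracted (0.203). A copy of its mammalian ligand's gene, ccl25b, had 231 of 238 counts in gill GFP 1.

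Receptors of the CCR6 type were read mainly in GFP cells. CCR6 (ENSDARG00000087474) was at 172, 262 and 22.7 CPM in gill GFP against 3.06, 1.91 and 1.66 CPM in gill DsRedx, and at 65.5, 63.3 and 25.0 CPM in intestine GFP against 0.551, 0.531 and 0.247 CPM in intestine DsRedx. Every GFP library lay above every DsRedx library. The log2 difference was 6.10 (SE 1.53, adjusted p = 0.0265) in the gill and 6.81 (SE 1.59, adjusted p = 0.0154) in the intestine. The gill call was lost in 8 of the 12 fits that left out 1 library, those without gill GFP 1 or 2, any gill DsRedx or any intestine GFP library (adjusted p = 0.051 to 0.137; 5.47 without gill GFP 2), and with the replicate number as a block (adjusted p = 0.0659) or only the gill groups fitted (0.0529). The intestine call was lost without gill GFP 2, intestine GFP 1 or 2, or any intestine DsRedx library (adjusted p = 0.0527 to 0.0965). DsRedx levels were 1.45% and 0.864% of the GFP levels, under the 2% cutoff of the shared low level. The other CCR6 identifier (ENSDARG00000038968) was highest in gill GFP cells, with 71.0, 63.9 and 159 CPM in gill GFP against 1.53, 0.696 and 0.414 CPM in gill DsRedx. Intestine GFP libraries held 0, 3.73 and 0 CPM and intestine DsRedx libraries at most 0.133 CPM. Gill GFP values did not overlap with any other group, but the gill color difference of 6.78 (SE 2.38) had an adjusted p of 0.101 and the GFP tissue difference of 6.29 (SE 2.32) one of 0.161. All 39 counts of intestine GFP cells lay in intestine GFP 2, without which the fitted tissue value was 12.63 against a group at 0. Gill GFP libraries thus held both CCR6 copies together with ccl20a.3 (318 to 1475 CPM). Gill DsRedx libraries held ccl20a.3 at overlapping levels (182 to 618 CPM), and intestine GFP libraries held it at 4.95 to 27.1 CPM.

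**Figure D4:**
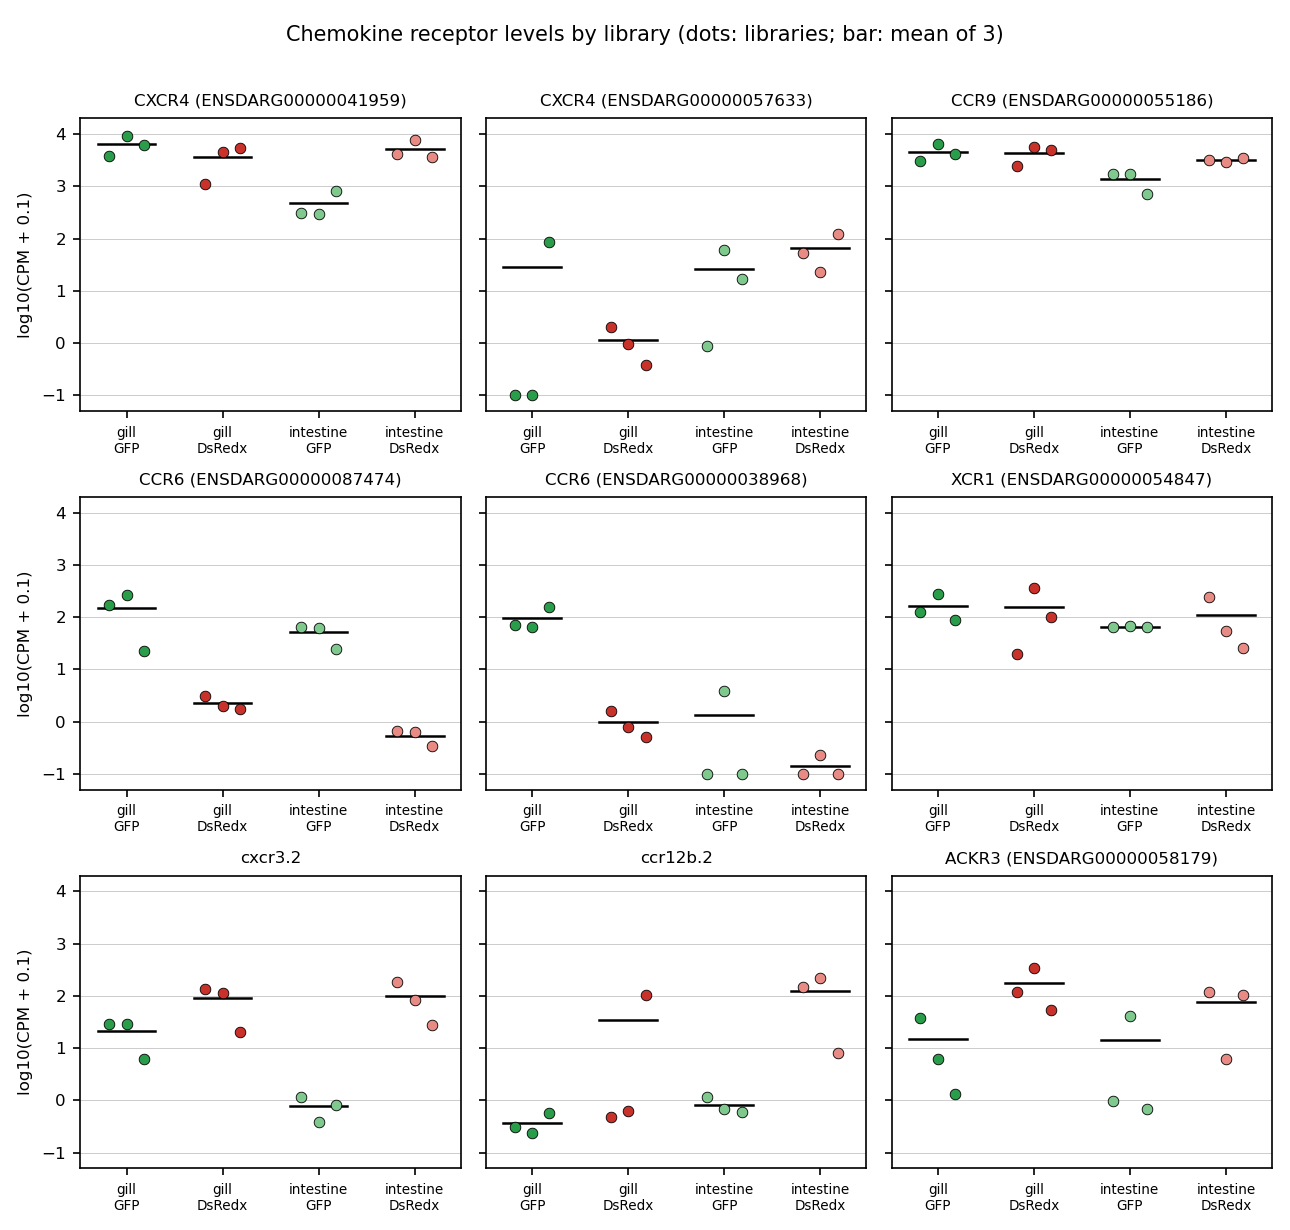
Level of receptors in each library, drawn as for the ligands on a log10(CPM + 0.1) axis, with points for libraries and lines for the log10 of the group mean. CXCR4 (ENSDARG00000041959) is lowest in the 3 intestine GFP libraries (298 to 823 CPM), and CCR6 (ENSDARG00000087474) is higher in all 6 GFP libraries than in any DsRedx library.

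Of the CXCR3 and CCR12 types, 1 receptor was called, cxcr3.2 in the intestine, where it was lower in GFP cells. It was at 187, 85.4 and 27.7 CPM in intestine DsRedx against 1.04, 0.287 and 0.733 CPM in intestine GFP, and at 137, 113 and 20.4 CPM in gill DsRedx against 28.9, 28.5 and 6.22 CPM in gill GFP. The intestine groups were far apart and the gill groups overlapped. In the intestine the log2 difference was -7.15 (SE 1.65, adjusted p = 0.0144), lost without any of the 3 intestine GFP libraries or intestine DsRedx 1 (adjusted p = 0.0637 to 0.122; -6.52 without the latter and -7.78 without intestine DsRedx 3). In the gill it was -2.09 (SE 1.31, adjusted p = 0.288), and the difference of these color effects did not pass the test (5.06, SE 1.89, adjusted p = 0.243). The intestine GFP level was 0.688% of the DsRedx level. The related cxcr3.3 was at 27.5, 10.6 and 0.467 CPM in gill GFP against 15.9, 23.1 and 6.35 CPM in gill DsRedx, and at 1.04, 15.6 and 0.880 CPM in intestine GFP against 123, 344 and 6.67 CPM in intestine DsRedx. Its colors overlapped in both tissues (log2 -0.23, adjusted p = 0.976 in the gill and -4.75, adjusted p = 0.151 in the intestine). CXCR3 (ENSDARG00000007358) had 859 of its 861 gill DsRedx counts in gill DsRedx 1. In the intestine it was at 2.76, 6.505 and 13.96 CPM in DsRedx and at most 0.191 CPM in GFP cells, without overlap (log2 -5.89, SE 2.58, adjusted p = 0.176). The receptor ccr12b.2 was at 147, 219 and 8.03 CPM in intestine DsRedx against 1.04, 0.574 and 0.513 CPM in intestine GFP. In the gill 1 library, gill DsRedx 3, held 104 CPM and every other gill library at most 0.522 CPM, and neither color difference was called (adjusted p = 0.0676 in the intestine and 0.0784 in the gill).

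The first XCR1 identifier (ENSDARG00000054847) was present in every library, at 128, 282 and 86.6 CPM in gill GFP against 19.5, 360.3 and 101 CPM in gill DsRedx. Intestine GFP libraries held 64.3, 69.4 and 63.6 CPM and intestine DsRedx libraries 243, 55.0 and 25.8 CPM. It was even in intestine GFP cells and spread widely in both DsRedx groups, and no comparison was called (adjusted p of 1 in the gill and 0.803 in the intestine between colors). The second, ENSDARG00000052988, reached 14.5 CPM in gill DsRedx 3, 15.3 CPM in intestine DsRedx 2 and 30.8 CPM in intestine DsRedx 3, with at most 0.348 CPM elsewhere.

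Tissue comparisons called fewer genes. Between gill and intestine GFP cells 5 of the 29 genes were called (2.03% of all genes). They were 3 higher in the gill, CXCR4 (ENSDARG00000041959), ccl20a.3 and CCR9 (ENSDARG00000055186), where 0.703% of all genes were called higher, and 2 lower, cxcl19 and cxcl32b.1, where 1.33% were called lower. The count fell to 3, 1 and 3 without gill GFP 1, 2 or 3 and to 2, 1 and 2 without intestine GFP 1, 2 or 3. The call of cxcl19 (-2.77, SE 0.61, adjusted p = 0.0167) compared 2 levels that both lie under the 2% cutoff of the shared low level of their tissue. Subtracting 2% of the DsRedx level sets both of these levels to 0 by construction. The value of 0 after subtraction therefore does not test the call. The cxcl19 call was lost in the fit of the GFP groups alone (adjusted p = 0.423) and without gill GFP 1, gill GFP 2 or intestine GFP 2 (adjusted p = 0.064 to 0.0952). Between gill and intestine DsRedx cells 1 of the 29 genes was called, ccl20a.3, against 0.759% of all genes (0.225% higher and 0.534% lower; 24 and 57 genes, or 21 and 28 with DESeq2's size factors). Without intestine DsRedx 3 the count was 0. Of the 29 genes, 19 did not overlap between the GFP groups (27.2% of all genes) and 8 between the DsRedx groups (18.9% of all genes). Each group enters a color comparison and a tissue comparison, so these calls share libraries.

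Genes that did not pass the filter could be high in at most 2 libraries, since the filter asks for 3. Some of them are given here with the library that held most of their counts. CCR8, in mammals a receptor of T helper and regulatory T cells and some macrophages, had 2133 of its 2156 counts in gill DsRedx 3, which also held 606 of 683 counts of ccr12b.1 and 192 of 196 of ACKR2, a scavenger of inflammatory CC chemokines. The summed level of the T cell marker list (5 identifiers) was 1.15, 37.7 and 262 CPM in gill DsRedx 1, 2 and 3. In gill GFP it was 0.319 to 0.622 CPM. In gill DsRedx 3 the sum was lck (186 CPM), cd8a (56.7 CPM) and cd4-1 (19.2 CPM), with no count of ZAP70 or il7r. The stromal list was 145 CPM in gill DsRedx 3 and at most 4.65 CPM in the other gill libraries. That reading was 1 gene, COL1A2 (144.6 CPM), with the other stromal markers at most 0.138 CPM there. The part of T cells or stromal cells in these readings was not tested. In intestine DsRedx 1, 2 and 3 the T cell list stood at 30.9, 113 and 379 CPM. These sums were nearly all cd4-1 (3.31, 112 and 230 CPM) and il7r (27.4, 0.265 and 149 CPM). There lck and ZAP70 had no count and cd8a was at most 0.796 CPM, so the sums do not describe the whole list. Gill GFP 1 held 463 of 538 counts of ccl19a.2, 148 of 150 of CXCL12 and 231 of 238 of ccl25b. Gill DsRedx 2 held 239 of 245 counts of ccr10, and gill DsRedx 1 held 144 of 145 of ccl39.1. Intestine GFP 2 held 96 of 97 counts of ccl36.1 and 58 of 59 of ccl38a.4, and intestine DsRedx 1 held 792 of 862 of cxcl11.4 and 213 of 217 of ccl20b. Such readings in 1 library have no replicate. Other genes under the filter were read in 2 libraries. The ligand cxcl18b had 174 and 516 of its 697 counts in gill DsRedx 1 and 2, and no count in gill DsRedx 3. The receptor ccr12a had 133 counts in gill DsRedx 3 and 151 in intestine DsRedx 2. For ccr2 there were 23 counts in gill DsRedx 3 and 91 in intestine DsRedx 3.

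Genes that act downstream of or beside chemokine receptors were read from a list of 58 names, of which 51 were found and 41 identifiers tested. The list holds G proteins, receptor kinases, arrestins, Rac and actin effectors, chemokine-processing enzymes and receptors related to those of chemokines. In the gill 2 were called higher and 2 lower in GFP cells, against 2.29% and 2.31% of all genes, and in the intestine 2 higher and 1 lower, against 2.09% and 2.03%; the median log2 differences were -0.29 and -0.46, beside 0 and 0.08 for all genes. The G proteins, kinases and actin effectors held 1 call between colors in either tissue, gng12a, a G protein gamma subunit, which was higher in intestine GFP cells (260 ± 120.3 against 9.34 ± 4.24 CPM; log2 4.80, adjusted p = 0.0127; lost without intestine GFP 1 or 3 or any intestine DsRedx library, adjusted p = 0.0613 to 0.112). The other higher call of the intestine was rgs14a, a regulator of G protein signalling, at 99.7 ± 28.6 against 3.36 ± 2.55 CPM (adjusted p = 0.0346, lost without gill GFP 1 or 3 or any intestine library, adjusted p = 0.0597 to 0.165, with RLE scaling, adjusted p = 0.057, and with the shared low level subtracted, 0.13; log2 4.88, and 4.198 without intestine DsRedx 1).

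The calls in the gill all fell on receptors of other ligands. CMKLR1 (ENSDARG00000090890), a receptor of the attractant chemerin in mammals, was at 2.68 ± 0.77 CPM in gill GFP against 596 ± 466 CPM in gill DsRedx (log2 -7.79, SE 0.94, adjusted p = 3.77e-05; -7.11 without gill DsRedx 3). In the intestine it was at 6.23 ± 0.426 CPM in GFP against 913 ± 300.1 CPM in DsRedx cells (log2 -7.19, SE 0.92, adjusted p = 6.15e-05). Both calls held in all 12 fits that left out 1 library, with GFP levels under 2% of the DsRedx level. Both LPAR6 copies, receptors of lysophosphatidic acid, were higher in gill GFP than in gill DsRedx cells, ENSDARG00000062552 at 276 ± 74.7 against 4.78 ± 1.39 CPM (adjusted p = 0.00251) and ENSDARG00000069441 at 149 ± 71.9 against 1.58 ± 0.473 CPM (adjusted p = 0.00434), and held in all 12 fits. The gill DsRedx level of each copy was under 2% of the GFP level, the cutoff of the shared low level. The size of these folds is therefore uncertain. In the DsRedx cells both copies were also lower in gill than in intestine (adjusted p = 0.045 and 0.0286), which rests on the same gill levels. The first of these was lost in all 12 fits that left out 1 library and the second without any gill DsRedx or intestine GFP library or without intestine DsRedx 3 (adjusted p = 0.0778 to 0.127 and 0.058 to 0.128). Both were also lost with the replicate number as a block (adjusted p = 0.0821 and 0.0506), with RLE scaling (0.0709 and 0.0514) and in the fit of the DsRedx groups alone (0.533 and 0.35), and the first with no filter on low counts (0.0659). The log2 differences were -4.28 and -5.88, the second -4.76 without intestine DsRedx 3. The complement receptor c5ar1 had no count in gill GFP and 10.25 ± 17.03 CPM in gill DsRedx, at least 74.7-fold lower (adjusted p = 0.0475); only the fits without gill DsRedx 1 and gill DsRedx 3 kept the call (adjusted p = 0.0502 to 0.19 in the other 10). The fitted log2 value of -9.41 was -4.98 without gill DsRedx 2, and the call was lost with the replicate number as a block (adjusted p = 0.11), with limma (0.382 at a pseudocount of 1 and 0.217 at 0.1) and with the shared low level subtracted (0.167). Between the GFP groups none of the 41 was called by edgeR (5 higher and 3 lower at an unadjusted p under 0.05; 2 and 2 by DESeq2 and 0 and 0 by limma), nor was any in the difference of the color effects (2 and 3 unadjusted; 2 and 2 by DESeq2 and 2 and 1 by limma).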

How the data were processed

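Total RNA of 12 libraries (3 in each of 4 groups, 30 to 50 cells each) was read as 150 base paired ends. The authors deposited a table of whole-number counts per Ensembl gene, not normalized, and a table of TPM for the same 32520 genes. STAR and featureCounts on danRer11 are named, per the submitters' processing notes; no version, setting, strandedness or treatment of reads shared by copies is stated there. The members, gene lists, marker lists and tests were chosen with earlier results of these data known, and the names of CCR6 (ENSDARG00000038968), ACKR3 and ccr12b.1 and other genes outside the rule were picked after their values were seen. Groups come from the sample titles. Counts were tested with edgeR 4.0.16 (limma 3.58.1, DESeq2 1.42.0 and R 4.3.3 for the alternatives): filterByExpr with default settings, TMM scaling, quasi-likelihood F test, 1 mean per group over all 12 libraries, 8 residual degrees of freedom, Benjamini-Hochberg adjustment over 10666 genes, called under 0.05. CPM uses TMM-adjusted library sizes and is set only between libraries. TPM ranks genes within a group and gives the shares and sums of each library, and the limma alternatives test it between groups. Symbols were matched through a name table. The rule for named genes was every member called in any comparison, both CXCR4 copies, and the 3 ligands and 3 receptors of highest mean TPM in each group. Bounds against a level of 0 use 3 counts summed over its group, and Poisson intervals of 95% cover counting error only, since PCR reads without molecular identifiers are not independent molecules. The fit was tested on simulated data with known changes. Alternatives were RLE scaling, other filters, a replicate block, only the groups compared, DESeq2, limma on log2(TPM + 1) or log2(TPM + 0.1), subtraction of 2% of the higher group of the tissue, and leaving out each library in turn. DESeq2 gave no adjusted p for cxcl8a between colors in either tissue.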

Additional observations from a re-analysis of the deposited data

Results flagged for a closer look

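CXCR4 (ENSDARG00000041959) was the only gene of the family whose color effect differed between the tissues by edgeR's test of that difference (DESeq2 called 3). The log2 difference of GFP against DsRedx was 4.21 larger in the gill than in the intestine (SE 0.79, adjusted p = 0.0348 by edgeR): all 3 intestine GFP libraries lay below all other libraries, while the gill groups overlapped. The call rests on 5 of the 12 libraries, each of whose removal ended it (gill GFP 2 and 3, intestine GFP 1 and 2 and intestine DsRedx 2, adjusted p = 0.0541 to 0.131). With limma the adjusted p was 0.0708 on log2(TPM + 0.1) and 0.0718 on log2(TPM + 1) without the filter. Groups of 3 libraries are too small for a test of outlying samples.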

How the results depend on the processing

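Genes called between colors in the gill (490) became 2706 with DESeq2, 755 and 772 with limma at pseudocounts of 1 and 0.1, 242 with the shared low level subtracted and 236 with only the groups compared. In the intestine (439) they became 2222, 1155 and 1158 (918 with no filter) and 1079 with only the groups compared. Between the GFP groups (217) they became 1390, 761 and 790 (583 with no filter) and 44 with the low level subtracted. Between the DsRedx groups (81) they became 49 with RLE scaling, 267 with no filter, 1711 with DESeq2, 151 with limma at a pseudocount of 0.1 and 7 with the low level subtracted. The difference of the color effects (16) gave 9 with RLE, 107 with no filter, 701 with DESeq2, and 269, 0 and 89 with limma at pseudocounts of 1, 0.1 and 1 without filter. The chemokine and receptor genes called were 14 with DESeq2, 4 with the low level subtracted and 3 with only the groups compared in the gill (7), and 17 with DESeq2 and 11 with only the groups compared in the intestine (7). They were 8, 1 and 3 between the GFP groups (5) and 5, 0 and 0 between the DsRedx groups (1), in the same order. For the difference (1) they were 3 with DESeq2 and 0 with limma at a pseudocount of 0.1 and with no filter. Without 1 library each, the ranges were 231 to 492, 181 to 543, 96 to 273, 35 to 83 and 1 to 17 genes, and 3 to 7, 3 to 9, 1 to 5, 0 to 1 and 0 to 1 of the family.

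The replicate number of the labels was also fitted as a block. The 18 same-number pairs correlated at only -0.0319 to 0.0399, yet 8 of 12 libraries were nearest to their own number. These values do not settle whether the numbers pair the libraries. With the block 347, 385, 218, 75 and 23 genes were called, and 5, 7, 4, 1 and 1 of the family. Every called value of a single gene kept its direction in every alternative run except cxcl19 between GFP groups, which became 0 after subtraction. Values not called did change sign: between the gill colors ccl20a.3 (0.70) was -0.33 and CCR9 (ENSDARG00000055186; 0.04) was -0.29 without gill GFP 2. RLE moved the median of all genes by -0.20 (intestine colors), 0.25 (GFP groups) and 0.26 (DsRedx groups) on the log2 scale, and 2 fitted values in the gill, 1 between GFP and 1 between DsRedx groups changed sign, none of them called. At this depth 3 counts over a group were 0.0842 to 0.165 CPM. The values of the pathway genes under these alternatives were added after seeing the data. The fit of only 2 groups could not give the difference.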
